A study of Mus musculus with 3 samples.

Results

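The 6 genes described here are carbonic anhydrase genes. They were followed through spatial transcriptomes of the embryonic mouse axial skeleton, namely Car3, Car1, Car2, Car4, Car12 and Car14. They were taken by symbol from the 32285 genes of the files, and they had been chosen by measured values of these sections, including their levels in spots that hold the notochord gene T, in muscle spots, in globin-rich spots and in the remaining spots. Their levels are therefore given as a description, with no test, also where a further group of spots is set against the remaining spots. The 3 sections were measured with 10x Genomics Visium, 1 of an embryo at E11.5, 1 of E12.5 and 1 of E13.5 (E counts embryonic days), all labelled as mouse axial skeleton, with no treatment, strain, genotype or sex named in the labels. Each spot of the Visium array, 55 µm in diameter, collects RNA from a small patch of tissue that may contain different cell types, and transcripts are counted by unique molecular identifiers (UMIs). With 1 section per stage, the stage, the embryo and the place of the cut cannot be told apart.

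Carbonic anhydrases convert carbon dioxide and water into bicarbonate and a proton, and back. Car1, Car2 and Car3 encode cytosolic enzymes, Car4 an enzyme anchored to the outer cell surface, and Car12 and Car14 enzymes that span the membrane with the catalytic part outside. In adult tissues Car3 is best known from slow skeletal muscle and fat, where its catalytic rate is low, while Car1 and Car2 are the enzymes of red blood cells and Car2 also serves osteoclasts and many secretory epithelia. Car4 is known from capillary walls, and Car14 from heart, muscle, kidney and retina. Car1, Car3 and Car2 are neighbours. On chromosome 3 of the mm10 (GRCm38.p6) build Car1 spans chr3:14766214-14808365, Car3 spans chr3:14863538-14872381 and Car2 spans chr3:14886269-14900770. Car14 lies far from them at chr3:95897768-95905117, Car12 at chr9:66712296-66766845 and Car4 at chr11:84957754-84966054.

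The 3 sections gave 1561, 1014 and 1360 spots with at least 1000 UMIs at E11.5, then E12.5, then E13.5, with 44358610, 25490744 and 28750314 UMIs in all. The median spot held 27048, 24386 and 20944 UMIs. Globin genes took 5.44%, 1.40% and 0.780% of the UMIs. Spots with at least 1 UMI of T are called T spots (103, 120 and 175). Muscle, cartilage and neuronal spots come from the top 10% of each section by marker genes, and globin-rich spots from the top 10% by the share of globin UMIs. Spots that ranked there but held T were counted as T spots only. Spots without T that fell in more than 1 of these groups were set aside, and the 901, 548 and 732 spots in none of them are the other spots. The labels of some groups need care. At E11.5, 48 of the 136 muscle spots were among the top 5% of spots for heart genes. They held 15245 CPM (UMIs scaled to a total of 1000000) of 5 heart genes and 0.941 CPM of Myod1 and Myog, the genes of myogenic factors, together. For Car3 and Car14 the ratios of muscle to other spots are therefore also given without heart spots. All other values of muscle spots include them. The notochord gene Noto had 0 UMIs in every group of spots. T spots held 146, 216 and 208 CPM of the 6 other notochord markers, against 94.7, 51.9 and 105 in other spots. Neuronal spots held 7204, 6847 and 2448 CPM of 7 neuronal genes, so the E13.5 group was the weakest. Of its 103 spots, 9 were among the top 5% for heart genes. Where a level differs between groups of spots, fewer cells of a type and less RNA per cell cannot be told apart.

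Over whole sections the genes ran in different directions with stage. Car3 stood at 12.6, 19.9 and 114 CPM at E11.5, then E12.5, then E13.5, counted from 558, 507 and 3265 UMIs. The E13.5 level was 9.03 times the E11.5 level (95% interval 8.25 to 9.89, counting error only), with most of the step after E12.5, where the ratio of E13.5 to E12.5 was 5.71 (5.20 to 6.28). Car12 stood at 1.40, 1.45 and 4.38 CPM, a ratio of E13.5 to E11.5 of 3.14 (2.30 to 4.32). Car2 and Car4 ran the other way and at different times. Car2 stood at 139, 21.8 and 24.8 CPM, so that its lower level was already there at E12.5. Car4 stood at 2.57, 2.32 and 0.278 CPM, and its E12.5 level did not differ from that of E11.5 beyond counting error (ratio 0.901, 0.646 to 1.24). Car14 was lower at each later stage, with 23.8, 16.4 and 8.0 CPM and a ratio of E13.5 to E11.5 of 0.336 (0.290 to 0.388). Car1 was close to the limit of detection, with 6, 3 and 9 UMIs over the 3 sections, where 3 UMIs would be 0.0676, 0.118 and 0.104 CPM.

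Of the 6 genes, 5 had at least 50 UMIs over the E11.5 and E13.5 sections. Car3 and Car12 were at least 2-fold higher at E13.5 and Car2, Car4 and Car14 at least 2-fold lower, a size of difference that 14.6% and 7.89% of 15232 genes reached in those directions. These shares describe 2 sections, and no test between stages was possible.

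**Figure D1:**
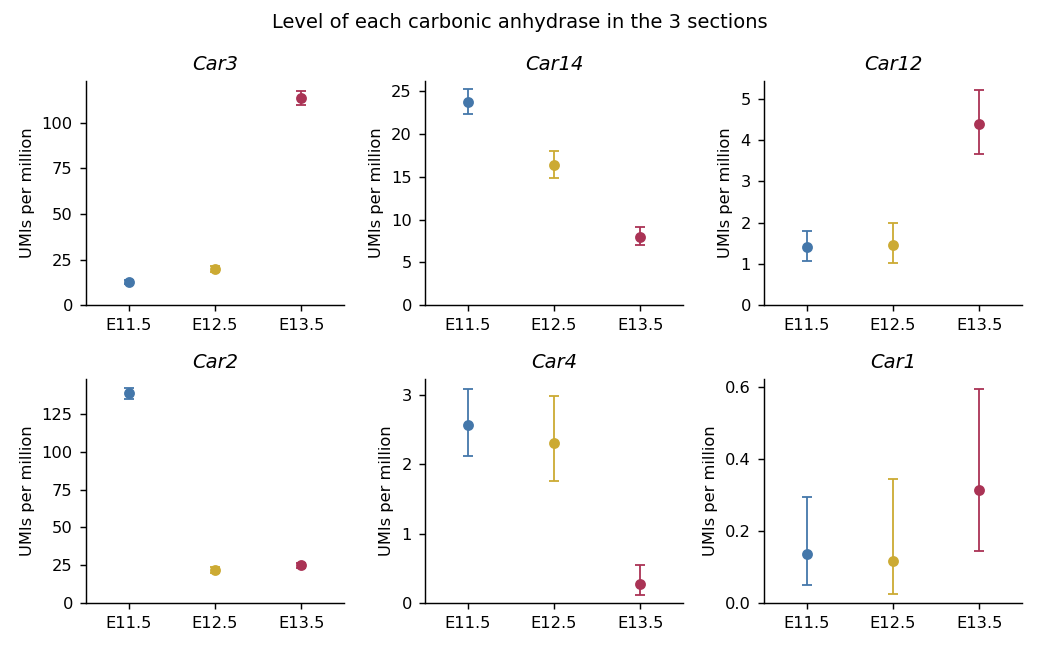
Level of each of the 6 genes in CPM (vertical axes start at 0 and differ between panels) in the E11.5, E12.5 and E13.5 sections. Points are whole-section levels and bars exact Poisson 95% intervals of the counts; Car3 and Car12 are highest at E13.5, while Car2, Car14 and Car4 are highest at E11.5 or level with E12.5.

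Car3 was concentrated in spots with T, the transcription factor gene (Brachyury) that marks the notochord. T spots held 75.1, 82.3 and 601 CPM of Car3 at E11.5, then E12.5, then E13.5, against 5.998, 11.9 and 42.8 in other spots, so T spots were above other spots by 12.53, 6.94 and 14.0 times. T spots made up 6.60%, 11.8% and 12.9% of the spots and held 39.8%, 51.1% and 59.0% of all Car3 UMIs. The level in T spots at E13.5 was well above that at either earlier stage, and the level in other spots was higher at each later stage too.

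Within the T spots, Car3 was higher where more T UMIs were counted. In the E13.5 section spots with 0, 1, 2, 3 to 5 and 6 or more T UMIs held 52.4, 87.3, 284, 1860 and 9601 CPM of Car3. In the E11.5 section the same steps gave 8.12, 17.6, 7.78, 289 and 1436, and in the E12.5 section 11.1, 21.9, 26.3, 172 and 860. At E11.5 and E12.5 spots with 2 T UMIs were within counting error of spots with 1. The step came at 3 T UMIs in both. All 16 spots with 6 or more T UMIs at E13.5 held Car3, between 7 and 192 UMIs each with a median of 96.5.

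A few spots therefore carried much of the gene. The split at 3 T UMIs was made after these values were seen. Spots with 3 or more T UMIs numbered 12, 23 and 25 at E11.5, then E12.5, then E13.5, and they held 31.7%, 39.2% and 49.2% of the Car3 UMIs in 0.564%, 1.88% and 0.756% of all UMIs. Car3 was present in 12 of 12, 22 of 23 and 25 of 25 of them. These spots were also the ones with the other notochord markers, at 835, 944 and 2033 CPM, against 82.5, 85.5 and 75.2 in spots with 1 or 2 T UMIs and 83.4, 44.0 and 90.7 in spots without T. They held cartilage genes as well, at 5887, 13784 and 19736 CPM of 8 genes, against 683, 1627 and 3689 in spots without T. Skeletal muscle genes were lower in them, with 24.0, 89.8 and 1439 CPM in spots with 3 or more T UMIs, against 107, 968 and 6036 in spots without T. The 4 fat markers gave 0, 0 and 32.2 CPM there, against 3.65, 2.999 and 65.4 in spots without T. The E13.5 spots with 3 or more T UMIs were shallow, with a median of 7949 UMIs, against 21457 in spots without T.

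**Figure D2:**
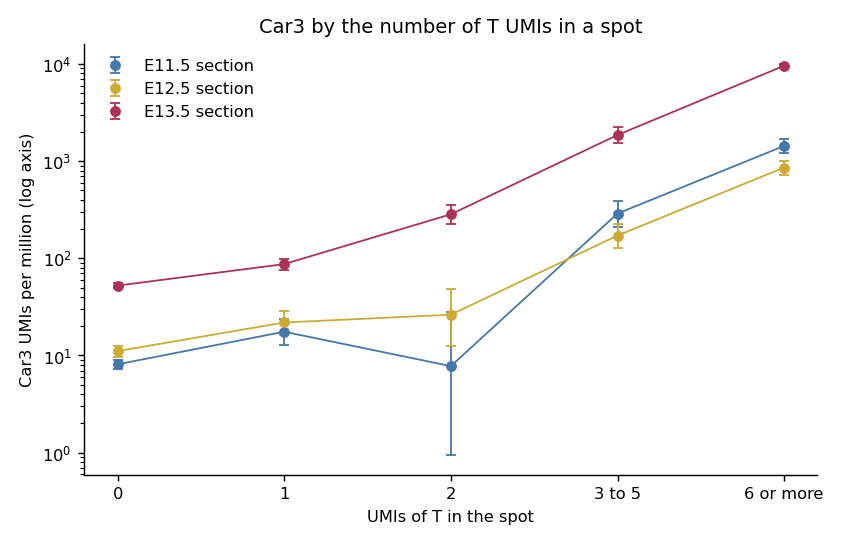
Car3 level in CPM (log axis) in spots grouped by their number of T UMIs, 1 line per section, with exact Poisson 95% intervals. In each section the spots with 6 or more T UMIs lie highest, at 1436, 860 and 9601 CPM at E11.5, then E12.5, then E13.5.

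Spots without any T UMI still held 60.2%, 48.9% and 41.0% of Car3 at E11.5, then E12.5, then E13.5, at 8.12, 11.1 and 52.4 CPM. The stage difference was therefore not held by T spots alone. Muscle spots had 15.4, 15.3 and 102 CPM of Car3, against 5.998, 11.9 and 42.8 in other spots. The ratio of muscle to other spots was 2.56 at E11.5 (95% interval 1.90 to 3.43), 1.29 at E12.5 (0.861 to 1.88) and 2.37 in the E13.5 section (2.09 to 2.69), so at E12.5 the groups were within counting error. Leaving the heart spots out of both groups moved the E11.5 ratio to 4.80 (3.43 to 6.64), with 23.2 CPM of Car3 in the remaining 88 muscle spots, against 4.84 in the remaining 881 other spots. The 48 heart spots among the muscle spots held 6.11 CPM. Globin-rich spots had 3.28, 10.96 and 33.0 CPM, at or below the level of other spots in each section.

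After thinning every spot to 3000 UMIs, a Car3 UMI was found in 7.77%, 19.2% and 34.4% of T spots and in 3.70%, 2.25% and 26.9% of muscle spots at E11.5, then E12.5, then E13.5. Neuronal spots, taken for comparison, gave 2.01%, 2.04% and 9.80%, against 1.56%, 2.60% and 11.8% of other spots. At E12.5 the thinned shares of muscle and neuronal spots rested on 2 spots each and could not be told apart. The summed UMIs did differ there, with 15.3 CPM of Car3 in muscle spots (10.6 to 21.4), against 5.05 in neuronal spots (2.94 to 8.09). Before thinning the shares were 35.9%, 52.5% and 71.4% of T spots, 30.1%, 28.9% and 84.0% of muscle spots, and 6.04%, 12.2% and 35.9% of neuronal spots, with median depths in T spots of 26535, 25723 and 17149 UMIs.

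The order of Car3 levels differed between sections. At E11.5 it ran from T spots down through cartilage spots (24.6 CPM), muscle spots and other spots to globin-rich and neuronal spots (2.13), with the intervals of cartilage and muscle spots overlapping, as did those of globin-rich and neuronal spots. At E12.5 the levels of muscle, other, globin-rich and cartilage spots (15.3, 11.9, 10.96 and 10.7) did not differ beyond counting error. At E13.5 cartilage spots (135) and muscle spots (102) came next after T spots and overlapped, and other, globin-rich and neuronal spots (42.8, 33.0 and 30.0) followed. Cartilage spots at E13.5 were the shallowest group, with a median of 4930 UMIs, against 21326 in other spots.

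**Figure D3:**
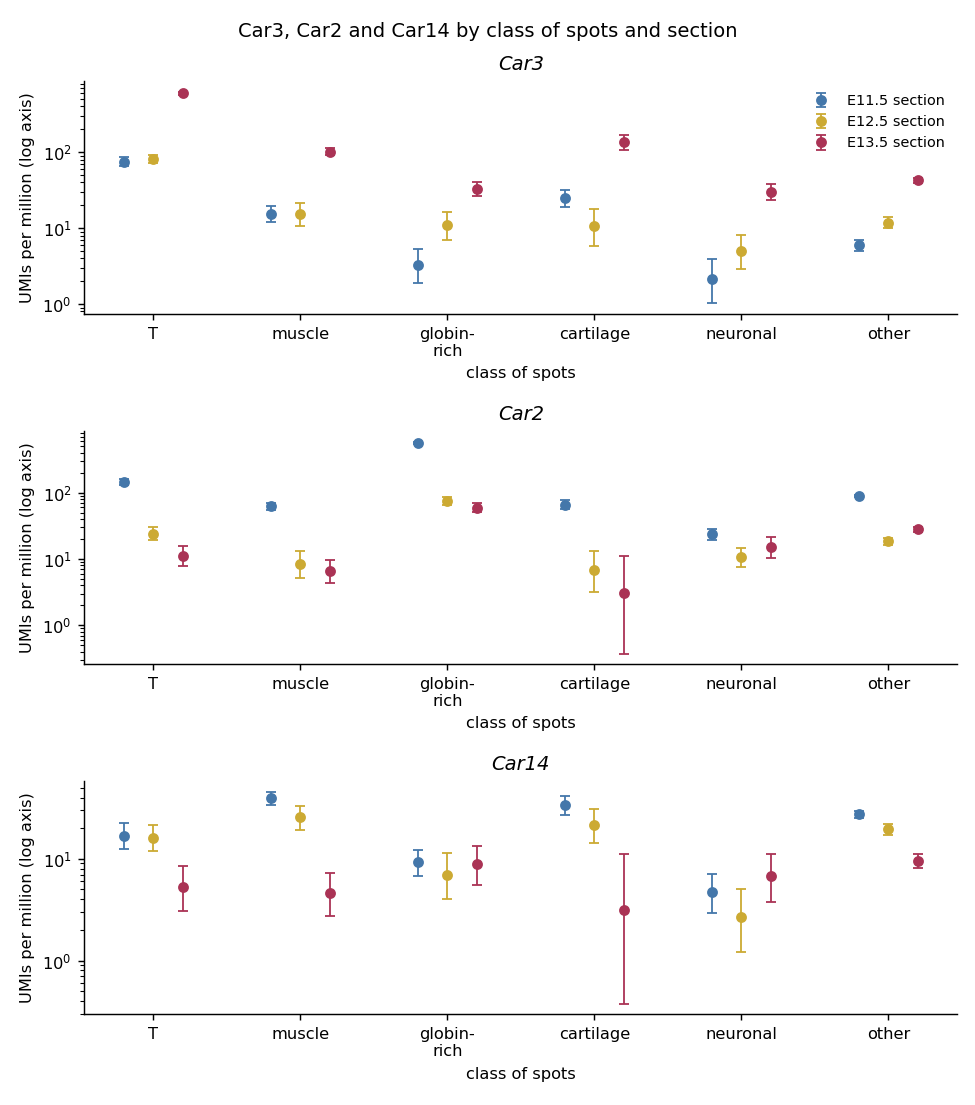
Car3, Car2 and Car14 in CPM (log axes) in 6 groups of spots, with the E11.5, E12.5 and E13.5 sections side by side and exact Poisson 95% intervals. Car3 is highest in T spots in every section, Car2 in globin-rich spots in every section, and Car14 in muscle spots at E11.5 and E12.5 but not at E13.5.

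The genes most like Car3 over spots were mostly notochord and cartilage genes. By the mean over the 3 sections of the within-section Pearson correlation of log2(UMIs per 10000 + 1), among 9952 genes with enough UMIs in each section, these were Krt8 (0.45), a keratin of simple epithelia and of the notochord, Col11a2 (0.41), a cartilage collagen, Acan (0.39), the cartilage proteoglycan aggrecan, Hapln1 (0.38), which links aggrecan to hyaluronan, and Htra1 (0.36), a secreted protease. Spots of a section share its library, and the rank correlations were weaker, at 0.15, 0.20, 0.20, 0.21 and 0.15. A look at each section alone, added after these values were seen, put T first in all 3, with r = 0.57 over 1561 spots at E11.5, 0.70 over 1014 at E12.5 and 0.69 over 1360 at E13.5. Shh, the notochord's signalling protein gene, was also near the top at E11.5 (0.47) and E12.5 (0.63), but not among the first 8 at E13.5. There T spots held 9.35 CPM of Shh, against 6.78 in other spots, a ratio of 1.38 with an interval that held 1 (0.887 to 2.08). Among the spots without T at E13.5, the first 8 were 1520401A03Rik (0.41), Snorc (0.40), a cartilage proteoglycan gene, Meg3 (0.37) and H19 (0.34), both imprinted noncoding RNA genes, Wwp2 (0.33), a ubiquitin ligase gene, and the cartilage collagen genes Col11a2 (0.36), Col2a1 (0.31) and Col9a2 (0.31). At E11.5 the spots without T gave Hapln1 (0.32), Htra1 (0.29), Pdlim3 (0.28), Tbx20 (0.25), a heart transcription factor gene, Papss2 (0.22), which serves sulfation in cartilage, the muscle genes Myog (0.22) and Mymx (0.21), and Fitm1 (0.21). At E12.5 no gene passed 0.21 in 894 spots.

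Among the 6 groups of spots, Car2 was highest in the globin-rich one. Globin-rich spots held 563, 75.0 and 59.6 CPM of Car2 at E11.5, then E12.5, then E13.5, against 88.3, 18.5 and 28.1 in other spots. Globin-rich spots were thus above other spots by 6.38 (95% interval 6.03 to 6.75), 4.04 (3.31 to 4.94) and 2.12 (1.75 to 2.56) times, a smaller ratio at each later stage. At E13.5, however, the other spots included 66 of the 68 spots ranked highest for lung genes (described below). Those 68 spots held 154 CPM of Car2, and the ratio without them was not computed. They held 47.4%, 30.8% and 20.7% of all Car2 UMIs. Of the 20 spots with most Car2 UMIs in each section, 19, 11 and 6 were globin-rich and 0, 6 and 12 were other spots. With spots ranked by their globin share and split into 5 equal bins, the bins of the E11.5 section had, from the lowest share to the highest, 13.9, 24.2, 53.9, 109 and 399 CPM of Car2, and those of the E12.5 section had 4.47, 8.61, 13.1, 23.7 and 57.2. At E13.5 the bins were flatter, at 8.10, 17.6, 19.6, 25.2 and 50.5. Globin-rich spots at E11.5 also held liver genes, at 3158 CPM of 6 genes, against 605 in other spots, and red cell genes other than globins, at 1305 CPM of 7 genes, against 184 in other spots. The part of liver and blood in the Car2 level was not tested.

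Slc4a1, the anion exchanger of the red cell membrane that carries bicarbonate out in exchange for chloride, gave a yardstick within each section. There were 1.18 Car2 UMIs for each Slc4a1 UMI at E11.5 (95% interval 1.14 to 1.23) and 1.13 at E12.5 (1.00 to 1.28), but 3.68 at E13.5 (3.14 to 4.34). In globin-rich spots of the E13.5 section the ratio was 2.31 (1.71 to 3.15), against 5.39 (4.25 to 6.89) in other spots. The other spots there included 66 of the spots ranked highest for lung genes. At E11.5 and E12.5 Car2 and Slc4a1 thus stood in about the same proportion in both sections, and at E13.5 there were more Car2 UMIs per Slc4a1 UMI.

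**Figure D4:**
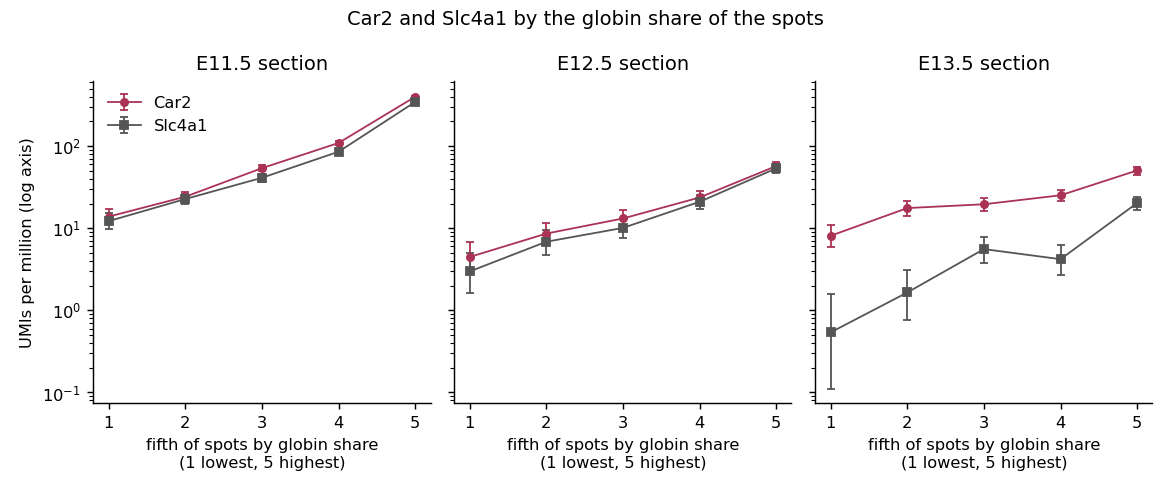
Car2 and Slc4a1 in CPM (log axis) in 5 equal bins of the spots ordered by globin share, 1 panel per section, with exact Poisson 95% intervals. The lines lie close together at E11.5 and E12.5, while at E13.5 Car2 stays at 8.10 CPM in the bin with the least globin, where Slc4a1 is at 0.540.

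The genes most like Car2 over all sections were Mt1 (mean r = 0.43) and Mt2 (0.38), which encode metal-binding metallothioneins, Alas2 (0.42), the first enzyme of heme synthesis in red cells, Gpx1 (0.39), a glutathione peroxidase, and Fth1 (0.38), the ferritin heavy chain, with globin genes left out. Section by section, a view added after the data were seen, Slc4a1 correlated with Car2 at 0.75 at E11.5 and 0.37 at E12.5. At E13.5 the first was Sftpc (0.57), the surfactant protein gene of the lung epithelium, followed by Adh1 (0.52), an alcohol dehydrogenase gene, and Tbx4 (0.48) and Foxf1 (0.46), transcription factor genes of lung mesenchyme. Spots of the top 5% by 4 lung genes held 154 CPM of Car2 (134 to 177) over 68 spots at E13.5, against 18.4 in all other spots. The 4 genes were chosen after these correlations were seen, and include Sftpc and Sfta2 (0.44), both among the genes most like Car2. A high Car2 level in such spots was favoured by that choice, so it adds no separate evidence. These 68 spots held 29.4% of the Car2 UMIs of the section. Slc4a1 was at 6.62 CPM in them, against 6.75 in all other spots.

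For Car2, T spots were above other spots at E11.5 and below them at E13.5. They held 146, 24.2 and 11.2 CPM of Car2 at E11.5, then E12.5, then E13.5, against 88.3, 18.5 and 28.1 in other spots. Their globin level was 59523 CPM at E11.5, against 31797 in other spots, and 6216 at E13.5, against 5548 in other spots, and its part in the Car2 ratio was not tested. Cartilage and muscle spots were low in Car2, with 3.11 CPM in cartilage spots and 6.63 in muscle spots at E13.5, against 28.1 in other spots. The other spots at E13.5 included 66 of the 68 lung spots, so their level is raised by these for T, muscle and cartilage spots alike.

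Car14 was spread over many spots at the early stages. It was detected in 39.7%, 30.6% and 13.2% of all spots at E11.5, then E12.5, then E13.5, and the 20 spots with most of it held no more than 11.7%, 16.0% and 23.5% of its UMIs. Muscle spots held 39.4, 25.6 and 4.59 CPM of Car14 at the 3 stages, against 27.4, 19.5 and 9.61 in other spots. The ratio of muscle to other spots was 1.44 at E11.5 (95% interval 1.21 to 1.70) and 1.32 at E12.5 (0.970 to 1.76), but 0.478 in the E13.5 section (0.276 to 0.781), and with the heart spots left out of both groups the ratios were 1.75 (1.43 to 2.13), 1.18 (0.836 to 1.63) and 0.639 (0.365 to 1.06). T spots and globin-rich spots did not exceed other spots in any section, with 16.9, 16.2 and 5.30 CPM in T spots and 9.25, 7.01 and 8.85 in globin-rich spots.

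At E13.5 a larger share of Car14 lay in spots rich in heart genes. Spots of the top 5% by 5 heart genes, used after the data were seen, held 41.7 CPM of Car14 (31.6 to 54.1) over 68 spots, against 6.32 in all other spots, and 24.8% of the gene's UMIs. At E11.5 the 78 heart spots held 29.4 CPM of Car14 (23.7 to 36.0), against 23.4 in all other spots. At E12.5 the 51 spots ranked highest held 30.0 CPM of Car14 (20.7 to 42.2), against 15.8 in all other spots, although the heart genes reached 75.5 CPM in them, against 13716 and 15530 CPM in the heart spots of the E11.5 and E13.5 sections. No gene reached a mean correlation of 0.3 with Car14 over the 3 sections. In single sections the first were Mdk (0.32), a growth factor gene, at E11.5, Hlx (0.29), a homeobox gene, at E12.5, and Myh6 (0.32), the atrial myosin gene, with Nkx2-5 (0.31), a heart transcription factor gene, at E13.5.

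Car4 was rare, and higher in spots rich in endothelial genes. The top 5% of spots by 5 endothelial genes held 13.9 CPM of Car4 over 78 spots at E11.5 (9.60 to 19.6), against 1.93 in all other spots. At E12.5 such spots held 8.70 over 51 spots (4.50 to 15.2), against 1.95 in all other spots. At E13.5 the whole section held 8 Car4 UMIs, 5 of them in neuronal spots, and the 68 endothelial spots held 1. Those endothelial spots were chosen after the data were seen. In T spots Car4 stood at 6.09 and 2.54 CPM at E11.5 and E12.5, against 2.64 and 2.22 in other spots. The endothelial genes stood at 315 and 243 CPM in those T spots, against 216 and 264 in other spots. At E13.5 T spots held 0 Car4 UMIs, where 3 UMIs would be 0.935 CPM.

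**Figure D5:**
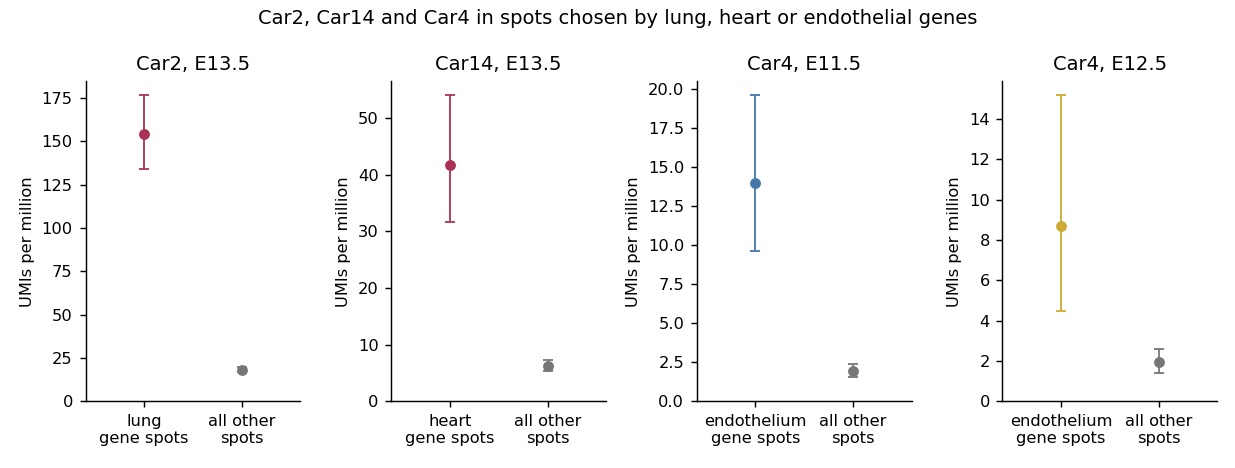
Car2 at E13.5, Car14 at E13.5 and Car4 at E11.5 and E12.5 in CPM (axes from 0, differing between panels) in spots chosen by lung, heart or endothelial genes (left in each panel) and in all other spots of the section (right), with exact Poisson 95% intervals. The panels were picked after the data were seen, and in each the intervals do not overlap. They do overlap in comparisons not drawn, among them Car14 in heart spots at E11.5 and Car4 in endothelial spots at E13.5. Another is Car2 at E11.5, with 110 CPM (87.3 to 137) in 24 spots chosen by lung genes, against 139 (136 to 143) in all other spots.

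Car12 was too rare to be placed. Muscle spots held 1.51, 1.35 and 5.36 CPM of Car12 at E11.5, then E12.5, then E13.5, and T spots held 0.677, 1.59 and 4.36, against 1.70, 1.99 and 4.33 in other spots. All of these were within counting error of other spots. Globin-rich spots held 1.93, 0 and 5.23 CPM, where 3 UMIs would be 1.32 CPM at E12.5. The ratio to other spots there was 0, with an interval of 0 to 0.873 that lay below 1. Each of these 4 groups had its highest Car12 level at E13.5, and no gene passed a mean correlation of 0.12 with it. Car1, the second red cell enzyme, had 2, 1 and 1 UMIs in globin-rich spots of the 3 sections, too few to give it a place.

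Cartilage and neuronal spots were set against the same other spots, so the values of the 6 genes there are a description too. Neuronal spots were low in Car14, Car3 and Car2. Car14 stood at 4.69, 2.67 and 6.72 CPM in neuronal spots at E11.5, then E12.5, then E13.5, against 27.4, 19.5 and 9.61 in other spots. The ratio at E13.5 was 0.699 with an interval that held 1 (0.382 to 1.19), while the earlier sections gave 0.171 (0.106 to 0.261) and 0.137 (0.0621 to 0.265).

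Car3 stood at 2.13, 5.05 and 30.0 CPM in neuronal spots at the 3 stages in turn, against 5.998, 11.9 and 42.8 in other spots. At E13.5 the mean over single spots gave the opposite order, with neuronal spots 1.21 times other spots. Car2 stood at 23.4, 10.7 and 15.2 CPM in neuronal spots, against 88.3, 18.5 and 28.1 in other spots, which at E13.5 included 66 of the 68 lung spots. Globin genes stood at 10852, 5277 and 6321 CPM in the same neuronal spots, against 31797, 10916 and 5548 in other spots, and their part in the Car2 difference was not tested. Car12 had 0, 2 and 5 UMIs in neuronal spots.

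Cartilage spots held 24.6, 10.7 and 135 CPM of Car3 at E11.5, then E12.5, then E13.5, against 5.998, 11.9 and 42.8 in other spots. They were above other spots by 4.10 times at E11.5 (95% interval 3.01 to 5.54) and 3.16 times at E13.5 (2.501 to 3.96), whereas the E12.5 ratio of 0.904 (0.483 to 1.56) was within counting error. These values leave out the 21, 37 and 31 cartilage-ranked spots that held T and were counted as T spots. Those held 428, 294 and 459 CPM of Car3. For Car14 the ratio of cartilage to other spots had an interval that held 1 in each section.

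Other genes that handle carbon dioxide, bicarbonate and protons were tested over lists of 10 other carbonic anhydrases, 2 receptor phosphatases with a carbonic anhydrase domain, 18 transporters and 11 hypoxia and glycolysis genes, of which 5, 2, 14 and 11 passed the filter on low counts. The test was edgeR's quasi-likelihood test over 13517 genes, with the section as a block and a threshold of 0.05 on the adjusted p. UMIs count molecules and were not scaled by transcript length. Among the other carbonic anhydrases Car11, which lacks enzyme activity, had the highest level in every section, with 17.3, 14.4 and 9.15 CPM. The lowest was the mitochondrial Car5a, with 0.0902, 0.0785 and 0 (4, 2 and 0 UMIs). Among the transporters Slc4a1 was highest at E11.5 with 118 CPM, the anion exchanger gene Slc4a2 at E12.5 with 41.7 and the water channel gene Aqp1 at E13.5 with 63.7. The lowest were the borate transporter gene Slc4a11 at E11.5 with 0.609, the bicarbonate transporter gene Slc4a10 at E12.5 with 0.353 and the ammonia transporter gene Rhcg at E13.5 with 0.278. Car9, the membrane enzyme known as a target of the hypoxia response, stood at 0.496, 0.981 and 2.02 CPM, a ratio of E13.5 to E11.5 of 4.07 (2.45 to 6.98), and was named after its values were seen.

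In globin-rich spots 2 of the 14 transporters were higher and none lower, beside 0.392% and 0% of all genes. These were Slc4a1 (log2 fold change 2.84, edgeR adjusted p = 0.000184) and Rhag (3.02, adjusted p = 0.00584), the Rh-associated glycoprotein of red cells. Slc4a1 stood at 518, 69.7 and 25.8 CPM in globin-rich spots at E11.5, then E12.5, then E13.5, against 66.8, 15.5 and 5.21 in other spots. Of all 13517 genes, 231 were lower in globin-rich spots at an unadjusted p under 0.05 in edgeR, and DESeq2 called 2 lower. Without the E12.5 section Rhag did not pass (adjusted p = 0.146). None of the other carbonic anhydrases or of the hypoxia and glycolysis genes passed there.

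In T spots none of the 32 tested genes of the 4 lists passed edgeR's test, beside 0.0444% of all genes higher and 0.0074% lower. At an unadjusted p under 0.05 the count was 0 as well, beside 184 of all 13517 genes higher and 118 lower. DESeq2 called 0 of them, beside 15 of all genes higher and 0 lower. In muscle spots 2.51% of all genes were higher and 0.984% lower, and Pgk1, a glycolytic enzyme gene, was the 1 list gene that passed (edgeR log2 fold change 0.84, adjusted p = 0.0397). Pgk1 stood at 951, 454 and 385 CPM in muscle spots at E11.5, then E12.5, then E13.5, against 456, 321 and 291 in other spots. The E11.5 value includes the 48 heart spots among the muscle spots. In edgeR it did not pass without any 1 of the sections (adjusted p from 0.0700 to 0.201). DESeq2 called 4 list genes higher in muscle spots, beside 571 of all 13517 genes. In cartilage spots none of the 32 passed, beside 1.02% of all genes higher and 0.755% lower. At an unadjusted p under 0.05 in edgeR 9 were higher and 2 lower, beside 1126 and 1451 of all 13517 genes. DESeq2 called 3 higher and 1 lower, beside 358 and 265 of 12730 genes.

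Car10 was higher in neuronal spots and Car13 lower. Car10, a catalytically inactive relative that binds neurexins, stood at 5.54, 14.9 and 6.72 CPM in neuronal spots at E11.5, then E12.5, then E13.5, against 1.06, 2.07 and 1.57 in other spots (edgeR log2 fold change 2.51, adjusted p = 0.000994). Car10 was higher in 3 of 3 sections. Its highest level in any other tested group was 2.49 CPM, in T spots at E13.5. Car10 therefore passed the filter on low counts only through the neuronal spots, where it is high. The call was favoured by that filter, so its p-value adds no separate evidence. Car13, a cytosolic enzyme whose gene neighbours Car1, was lower, at 1.70, 0.594 and 1.79 CPM in neuronal spots, against 5.28, 2.99 and 3.77 in other spots (log2 fold change -1.55, edgeR adjusted p = 0.00608). The bicarbonate transporter genes Slc4a8 (log2 fold change 1.77) and Slc4a7 (0.66) were higher. Slc4a1 (-1.23), Rhag (-2.23) and the lactate transporter gene Slc16a1 (-1.03) were lower, as were the glycolytic enzyme genes Ldha (-0.80) and Eno1 (-0.57). In all, 3 of the 32 list genes were higher and 6 lower in neuronal spots by edgeR, beside 20.4% of all genes called higher and 17.4% called lower. Without the E11.5 section Car13, Slc16a1, Eno1, Ldha, Slc4a1 and Slc4a7 did not pass (adjusted p from 0.0898 to 0.255), and without the E12.5 section Car13, Slc16a1, Eno1, Ldha, Slc4a7 and Rhag did not (0.0666 to 0.390).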

How the data were processed

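The deposited files hold raw UMI counts per gene and spot for 1 section per stage. Per the file headers, the authors' counts come from Space Ranger 1.2.0. The submitters' processing notes list STAR and mm10. The release of the annotation and the version of STAR are not given in the sources read. Stages come from the sample titles. Spot positions and images were not used here. Gene coordinates come from RefSeq tables of GRCm38.p6, in which 32158 of 32285 gene IDs were found.

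The minimum of 1000 UMIs per spot removed 2, 0 and 5 spots. Muscle, cartilage and neuronal scores are the mean log2(UMIs per 10000 + 1) over 10, 8 and 7 marker genes. Counts were summed per section and group, scaled to a total of 1000000, and given with exact Poisson 95% intervals, and ratios with exact conditional binomial 95% intervals. Shares of spots were also computed after thinning to 3000 UMIs. Visium barcodes are array positions, and 345 occur in all 3 sections. No doublet caller applies to spots.

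The 18 sums of 6 groups and 3 sections were tested with edgeR 4.0.16 (filterByExpr, TMM, glmQLFit, glmQLFTest, Benjamini-Hochberg) in R 4.3.3, with the section as a block, because groups of 1 section share their tissue. The p-values therefore rest on how 3 sections, each of another stage, scatter, and say nothing of the spread among embryos of a stage. The 6 carbonic anhydrases stayed in the fit, but their p-values are not given, since their levels in other spots helped to choose them; a test of them in cartilage and neuronal spots had been planned. DESeq2 1.42.0, other filters, other group limits and leaving out each section were alternatives. On simulated counts for T spots, 193 of 200 genes changed 4-fold were recovered among 13343 genes, with 10 false calls. The simulated spread followed the fitted trend, no other group difference was put in, and rare genes were not changed. The share recovered may therefore not hold for the measured counts. Sums and intervals were computed with scipy 1.17.1, numpy 2.4.6 and pandas 2.3.3 under Python 3.11.15, and figures drawn with matplotlib 3.10.9.

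Named genes are the 6 carbonic anhydrases, list genes past a test or highest or lowest in a section (the receptor phosphatases excepted), and up to 5 genes of mean correlation 0.3 or more per carbonic anhydrase, globins left out. Genes for single sections were added later and are marked so. Aldoa was left out, since its symbol occurs more than once in the files. The genes, lists and tests were chosen with earlier results of these data known.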

Additional observations from a re-analysis of the deposited data

Results flagged for a closer look

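The ratio of a group of spots to other spots lay on opposite sides of 1 in different sections for 2 pairs of gene and group, with 95% intervals (counting error only) that did not reach 1, and the difference between sections was not tested. Car2 in T spots stood at 1.65 times other spots at E11.5 (1.49 to 1.83) and at 0.400 times at E13.5 (0.276 to 0.562). With at least 2 T UMIs asked of a T spot, the E11.5 ratio was 1.22. At E13.5 the other spots included 66 of the 68 spots ranked highest for lung genes, which held 154 CPM of Car2. The E13.5 ratio without them was not computed. Car14 in muscle spots stood at 1.44 times other spots at E11.5 (1.21 to 1.70) and at 0.478 times at E13.5 (0.276 to 0.781). With heart spots left out of both the muscle and the other spots, the Car14 ratio was 1.75 at E11.5 (1.43 to 2.13) and 0.639 at E13.5, where its interval then held 1 (0.365 to 1.06).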

How the results depend on the processing

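All 18 shares of spots with a Car3 or Car2 UMI were higher without thinning, and the rank correlations of the 5 genes most like Car3 were lower by more than their spread between sections. Of 90 alternative counts of called genes, 45 were within 1.5 times the reported one. Without a replicate block for the section 0 genes were higher and 0 lower in T, muscle and cartilage spots, 0 were higher in globin-rich spots, and 1073 were higher and 518 lower in neuronal spots; Slc4a1, Rhag and Pgk1 were then not called either. Car10, Car13 and Slc4a8 kept their calls in neuronal spots without the block. Leaving out each section in turn gave 0 to 18 genes higher and 0 to 1 lower in T spots, 58 to 286 and 11 to 167 in muscle spots, 2 to 101 and 0 to 8 in globin-rich spots, 14 to 166 and 2 to 109 in cartilage spots, and 655 to 3595 and 168 to 3276 in neuronal spots, with the highest counts without the E13.5 section and the lowest without the E12.5 section, except in T spots, where the lowest came without the E11.5 section. DESeq2 called 15 higher and 0 lower in T spots, 571 and 226 in muscle spots, 119 and 2 in globin-rich spots, and 358 and 265 in cartilage spots. In T spots 14 were higher with no filter on low counts and 10 in spots of at least 5000 UMIs, and 45 were higher and 3 lower with at least 2 UMIs of T. With groups of the top 5% of spots, 2 genes were lower in T spots, 237 in muscle spots and 1 in globin-rich spots, and 246 were higher and 179 lower in cartilage spots. Taking the mean over spots in place of the sum gave ratios of E13.5 to E11.5 of 13.6 for Car3, 9.78 for Car1 and 0.221 for Car2. It gave ratios of T to other spots for Car3 of 20.4, 10.2 and 23.0 in the 3 sections, of muscle to other spots for Car3 at E13.5 of 1.94, of globin-rich to other spots for Car2 at E11.5 of 6.82, and of neuronal to other spots for Car3 at E13.5 of 1.21, the 1 value that changed direction. With at least 2 T UMIs the Car3 ratios in T spots were 52.9, 19.2 and 70.2, and with the top 5% groups 12.1 at E13.5. With the top 5% the Car3 ratios in muscle spots were 5.21 at E11.5 and 1.92 at E13.5, and the Car2 ratio in globin-rich spots at E13.5 was 3.15. Muscle spots outside the heart spots, an alternative chosen after seeing the data, gave 3.87 for Car3 at E11.5, and leaving the heart spots out of the other spots as well gave 4.80. A total without globin UMIs gave 8.01 for Car2 in globin-rich spots at E11.5. The cause of these changes was not tested. Of 106 alternative values of fitted fold changes 78 stayed on the same side of the threshold, 28 no longer passed, and none changed direction. Sections of 1 embryo per stage, few T spots and fewer than 10 Car1 UMIs in a section limit these values.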

Other observations

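Spots in more than 1 group and without T, which were left out of the comparisons, numbered 21, 4 and 20 at E11.5, then E12.5, then E13.5. They held 42.7, 27.5 and 67.8 CPM of Car3 and 211, 27.5 and 61.9 CPM of Car2. T spots that also ranked among the cartilage spots of their section numbered 21, 37 and 31 and held 428, 294 and 459 CPM of Car3. T spots in no other group numbered 59, 66 and 107 and held 17.8, 20.6 and 879 CPM of Car3. Outside the cartilage-ranked spots lay 43 of the 222 Car3 UMIs of T spots at E11.5, 50 of 259 at E12.5 and 1809 of 1927 at E13.5.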
